A study of Mus musculus with 25 samples.

Results

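The 40 genes described here encode the enzymes and entry points of glucose breakdown and of the citric acid cycle, and were followed by RNA sequencing in the atria of Pam knockout and wild-type mice. They were chosen by name, and all 40 had a line in the deposited table, of 14458 genes tested in all. For description they were split into 23 genes on the glycolytic side (glucose uptake, glycolytic enzymes, lactate dehydrogenase, the enzymes that set fructose 2,6-bisphosphate, and glycogen), 6 genes of pyruvate dehydrogenase and its kinases, and 11 genes of the citric acid cycle. Mdh1 is counted among these 11, although it encodes the cytosolic malate dehydrogenase and Mdh2 the mitochondrial one of the cycle. The 25 libraries came from individual atria of adult mice of 60 to 90 days, 7 from wild-type males, 5 from wild-type females, 5 from Pam knockout males and 8 from Pam knockout females. Pam encodes peptidylglycine alpha-amidating monooxygenase, which amidates the ends of secreted peptides and is abundant in atrial muscle. The series asks which messenger RNAs differ in atria with basal and with reduced PAM. The labels give the treatment as none, and the sources used here do not state which part of Pam was deleted, in which cells, or in what strain.

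Glycolysis splits glucose into pyruvate in the cytosol, and lactate dehydrogenase interconverts pyruvate and lactate. Pyruvate dehydrogenase turns pyruvate into acetyl-CoA in mitochondria, pyruvate dehydrogenase kinases switch that enzyme off, and the citric acid cycle oxidizes acetyl-CoA to feed the respiratory chain. Heart muscle makes most of its energy from fatty acids and lactate through the cycle, and many glycolytic steps have a muscle isoform beside a more broadly expressed one.

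By their names the libraries belong to a LARA set of 12 (LA or RA at the start of the name), a CGI set of 9 and a MaleKOAtrium set of 4, and the meaning of these words is not stated. The MaleKOAtrium set holds 4 of the 5 knockout males and nothing else, so that in those 4 the genotype and the set cannot be told apart. The fifth knockout male is KM13 of the LARA set. The depth recovered from the table ran from 2246887 to 8098602 reads per library. Pam lay between 295 and 520 CPM (reads of the gene scaled to a library of fixed size) in the 13 knockout libraries and between 1409 and 6245 CPM in the 12 wild-type libraries. Bmp10, a growth factor gene of adult right atrial muscle, ran from 0.433 to 7597 CPM. By its level, 4 libraries lay under 10 CPM (WM1, WM2, WM3 and KF14, all with LA names), 15 lay over 1000 CPM and 6 lay between. Names and levels did not match throughout: KF16 and KF17, also with LA names, had 76.5 and 4811 CPM, and KF18, with an RA name, had 443.5 CPM. These Bmp10 classes were made from a measured gene and are not groups of the study. Markers of atrial myocytes summed to between 23737 and 39025 CPM. KM01, a knockout male of the MaleKOAtrium set, and WF10, a wild-type female with 30.2% mitochondrial reads, stood apart from the rest, as did KM13. In the 4 MaleKOAtrium libraries Aldoa is listed with equal values on 2 lines of the table (712 to 909 CPM), while its lower line reads 0 to 0.589 CPM in the other 21, so that the level of Aldoa in that set is uncertain. Libraries also differed in how far a gene's level followed its transcript length. Spearman's rho over 9453 genes between a library's deviation and transcript length ran from -0.60 in KM13 to 0.56 in KM03. Several differences that moved without KM01, KM13 or WF10 are also given without that library.

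Per length, Mdh1, the cytosolic malate dehydrogenase counted with the cycle, was the most abundant of the 40, with a median of 1404 CPM per kilobase of its principal transcript over the 25 libraries. Ldhb, the heart form of lactate dehydrogenase, followed at 749 CPM per kilobase, and the glycolytic enzyme Aldoa, muscle aldolase, at 551 CPM per kilobase. The lowest were Slc2a1, the broadly expressed glucose transporter, at 3.81 CPM per kilobase, and Pfkfb1, a liver and muscle form of the enzyme that makes and breaks fructose 2,6-bisphosphate, at 3.07 CPM per kilobase. Among isoform pairs, the muscle forms Slc2a4, Pfkm, Pgam2 and Eno3 had a higher median per length than the broad forms Slc2a1, Pfkl, Pgam1 and Eno1. In hexokinase the order was the other way, with Hk1 at 19.3 CPM per kilobase and the muscle form Hk2 at 12.4 CPM per kilobase. Ldha, the skeletal muscle and general form of lactate dehydrogenase, had 324 CPM per kilobase, below Ldhb, and the kinases Pdk1 and Pdk2 lay side by side at 45.3 and 45.5 CPM per kilobase.

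Added up, the glycolytic side took a median of 0.665% of all reads, with 0.449% in KM01 and 1.27% in KM13 as the extremes. Pyruvate dehydrogenase took 0.262% (range 0.101% in KM01 to 0.34% in KF15), and the cycle 0.892% (range 0.323% in KM01 to 1.3% in KM13). Cytosolic Mdh1, at a median of 2978 CPM, was the largest single part of the cycle share. Over groups the cycle share was 0.939% ± 0.157 (SD, n = 7) in wild-type males, 0.744% ± 0.355 (n = 5) in knockout males, 0.957% ± 0.0983 (n = 5) in wild-type females and 0.964% ± 0.149 (n = 8) in knockout females. The glycolytic share in the same order was 0.647% ± 0.12, 0.704% ± 0.326, 0.746% ± 0.113 and 0.719% ± 0.153. The group ranges overlapped for all 3 shares, and the knockout males had the widest spread.

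**Figure D1:**
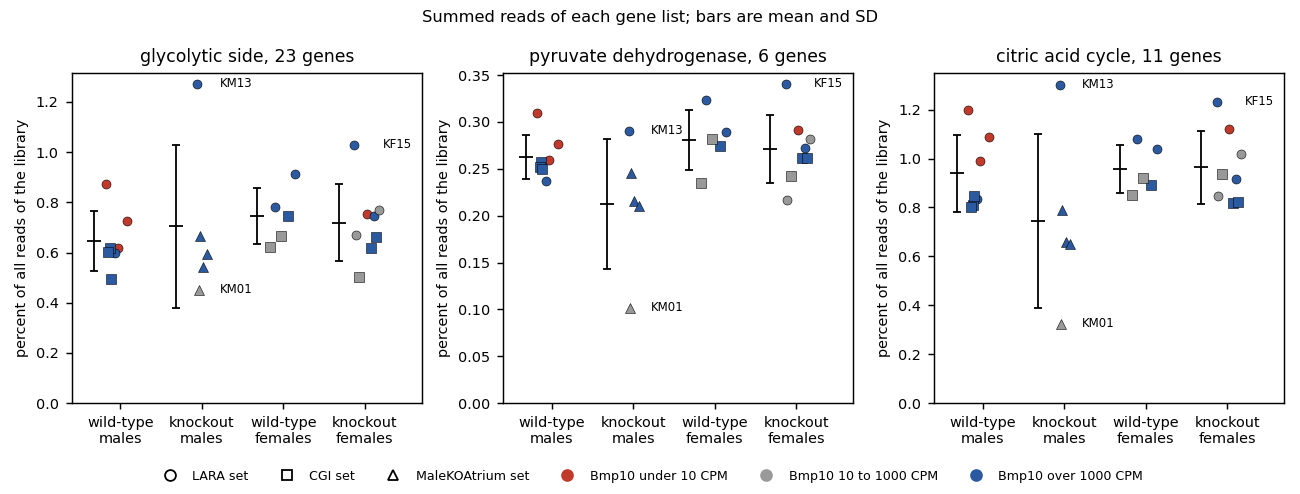
Percent of all reads taken by the 23 glycolytic, 6 pyruvate dehydrogenase and 11 citric acid cycle genes (y axes, from 0) in each library, by sex and genotype, with bars for the mean and SD; marker shape gives the name set and colour the Bmp10 level. KM13 is highest on the glycolytic side (1.27%) and in the cycle (1.3%), and KM01 is lowest in all 3 panels.

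The spread of the 40 genes between libraries rested in part on KM01 and KM13. The SD of the log2 level over 25 libraries had a median of 0.46 for the 40 genes (range 0.31 for Gpi1, glucose-6-phosphate isomerase, to 0.86 for Pfkfb1), beside 0.39 over the 9724 genes with a mean above 10 CPM, which are not matched to the 40 in level. Without KM01 and KM13 the median was 0.36 for both. A few libraries carried the extremes. KM13 held the highest value for 15 of the 40 genes (37.5%) and for 7.1% of all genes tested. Among them were Aldoa at 2315 CPM, the mitochondrial malate dehydrogenase gene Mdh2 at 1917 CPM and the muscle phosphofructokinase gene Pfkm at 725 CPM. The next highest library stood at 1644 CPM for Aldoa, 1411 CPM for Mdh2 and 472 CPM for Pfkm. KM01 held the lowest value for 22 of the 40 (55%), among them all 11 cycle genes, and for 22% of all genes. Its Ldhb was 158 CPM and its Mdh1 960 CPM, where no other library fell under 574 CPM and 1971 CPM. KF15 held the highest value for 8 genes, among them Ldhb (1880 CPM), Pdha1 and Pdhb of pyruvate dehydrogenase (1189 and 990 CPM) and Fh1, fumarate hydratase (847 CPM). KF19 held the lowest for 8, among them Aldoa (571 CPM) and Pkm, the muscle and general pyruvate kinase gene (217 CPM).

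Several other genes of the 40 also had their extremes in these libraries. Idh3a and Idh3g, subunits of NAD-linked isocitrate dehydrogenase, ran from 259 and 160 CPM in KM01 to 1042 and 972 CPM in KM13. Suclg1, a subunit of succinyl-CoA synthetase, Ogdh of 2-oxoglutarate dehydrogenase, Dlat of pyruvate dehydrogenase and Pygm, muscle glycogen phosphorylase, were also lowest in KM01, at 129, 255, 79.4 and 60.9 CPM, against lows of 246, 273, 97.4 and 132.5 CPM once KM01 and KM13 are left out. Pfkfb2, the heart form of the enzyme that sets fructose 2,6-bisphosphate, had its lowest level in KM01 (11.6 CPM) and its highest in KM03 (98.4 CPM). The platelet phosphofructokinase gene Pfkp was lowest in KF19 (32.6 CPM) and highest in KM03 (97.1 CPM), and Pgk1, phosphoglycerate kinase, lowest in KM03 (288 CPM) and highest in KF15 (666 CPM).

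Those extremes came with other traits of the libraries. The 3 libraries in which the 40 genes together took most reads, KM13 (2.87%), KF15 (2.6%) and WM3 (2.38%), had a length rho of -0.60, -0.55 and -0.38, so that shorter transcripts tended to read higher there. In the other libraries with a negative length rho the share ran from 0.873% (KM01, rho -0.23) to 2.24% (WF9, rho -0.01), with 1.87% in WM1 at a rho of -0.38. The 40 genes have a median transcript of 2324 bases, shorter than the 3069 bases over 13028 protein-coding genes. In KM01 the proliferation markers summed to 275 CPM, the highest of all libraries, with Mki67, a marker of dividing cells, at 125.5 CPM, and 18.5% of its reads were mitochondrial. Erythroid markers were also highest in KM01, at 5618 CPM. Ventricular myocyte markers summed to 155 CPM in KM01, the lowest of all libraries, and to 3918 in KM13, 5318 in KF15 and 1926 in WM3. They were highest in WF10, at 6780 CPM, where the 40 genes took 1.71% of reads. The part of length, of dividing cells, of other cell types or of RNA quality in these values was not tested. In these bulk samples fewer cells of a type and less RNA per cell cannot be told apart.

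**Figure D2:**
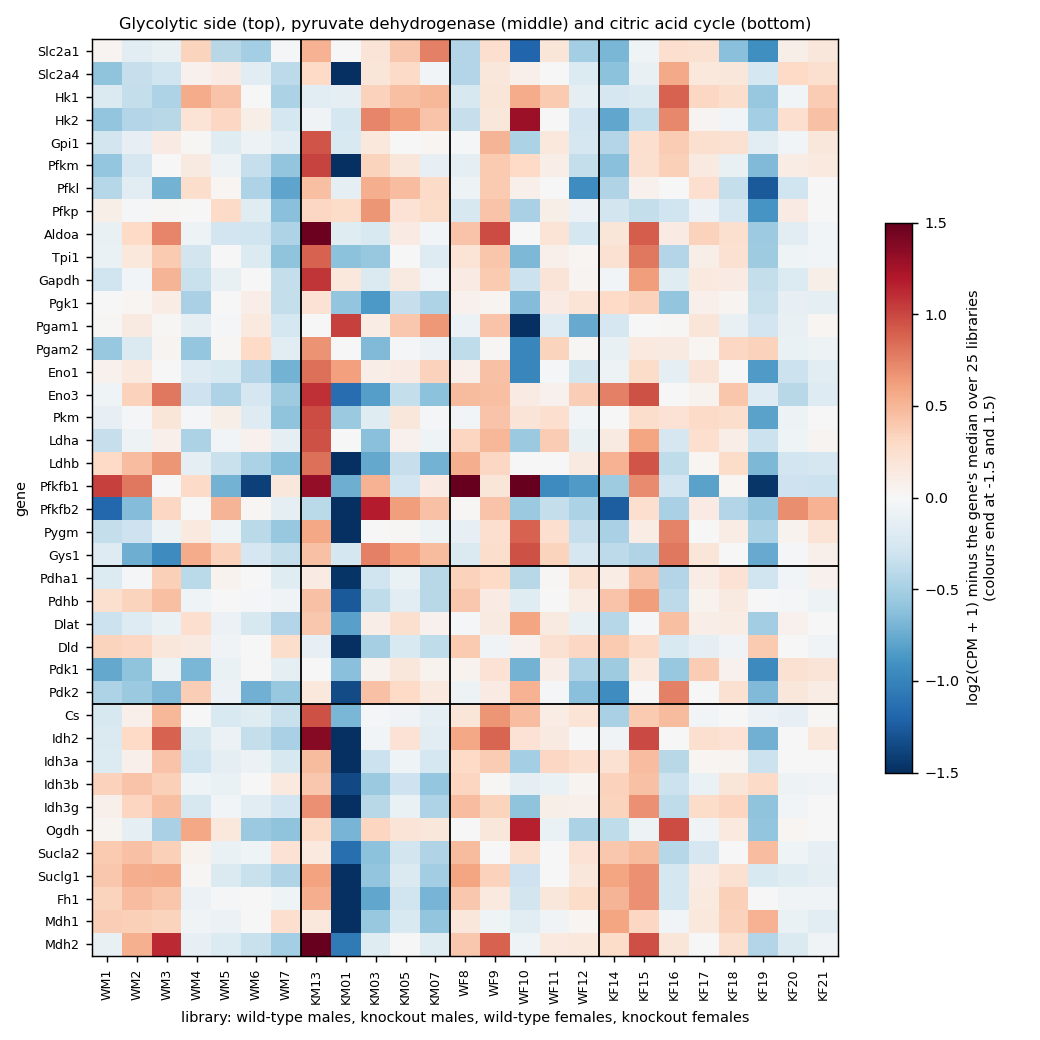
Each cell is the log2(CPM + 1) of 1 gene (rows: glycolytic side at the top, pyruvate dehydrogenase in the middle, cycle at the bottom) in 1 library (columns, by sex and genotype) minus that gene's median over 25 libraries. KM13 is red in most rows and KM01 is dark blue through the lower rows, where it is the lowest library for all 11 cycle genes.

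Knockout and wild-type atria of both sexes together showed no called difference in any of the 40 genes. Differences are log2(CPM + 1), tested with limma and called at a Benjamini-Hochberg adjusted p under 0.05 over all genes. Since sex and name set were terms of the fit, only the 8 knockout females and KM13 carried the difference on the knockout side. It called 1 gene of 14458 (0.00692%) and 0 of the 40. At an unadjusted p under 0.05, 1 of the 40 was higher and 0 were lower, and edgeR and DESeq2 called 0 of the 40. The median difference was 0.04 over the glycolytic side and -0.04 over the cycle, beside 0.07 over all genes, and with TMM factors it was -0.02 and -0.10. The lowest p belonged to Pgam2, the muscle phosphoglycerate mutase, with 332 to 458 CPM (median 381 CPM) in knockout females, 572 CPM in KM13, 181 to 454 CPM (median 363 CPM) in wild-type females and 240 to 440 CPM (median 322 CPM) in wild-type males. These ranges overlapped, and the difference was 0.43 (SE 0.18, adjusted p = 0.981 in limma). After it came Gpi1 (0.24, SE 0.16), Pfkfb1 (-0.50, SE 0.37), Pgam1, the broadly expressed phosphoglycerate mutase (0.21, SE 0.19), and Slc2a4, the insulin-responsive glucose transporter of muscle (0.25, SE 0.24). The levels of Gpi1 ran from 202 to 399 CPM in the wild-type groups and from 207 to 365 CPM in knockout females, with KM13 above them at 539 CPM. None of the 5 differences was called. Without KM13 the difference of Gpi1 was 0.05 and that of Pfkfb1 -0.89. Without WF10 the difference was 0.31 for Pgam2, 0.03 for Pgam1 and -0.195 for Pfkfb1.

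In females the same held. The fit on 8 knockout and 5 wild-type females called 2 genes of 14458 (0.0138%) and 0 of the 40, 0 of the 40 passed an unadjusted p under 0.05, and edgeR and DESeq2 also called 0 of the 40. With name set as a term of the fit, 8 of the 40 had a positive and 32 a negative difference, knockout minus wild type. These are not counts of plain group means: Tpi1 and Fh1, with negative differences, had means of 620 and 606 CPM in knockout and 606 and 590 CPM in wild-type females. The medians were -0.13 on the glycolytic side and -0.16 in the cycle, against 0.11 over all genes, and -0.23 and -0.27 with TMM factors. Pfkfb1 ranged from 2.31 to 19.6 CPM in wild-type and from 1.31 to 9.39 CPM in knockout females and differed by -0.86 (SE 0.41, adjusted p = 0.935 in limma). Its difference was -0.51 without WF10. Cs, citrate synthase, ran from 508 to 751 CPM (median 546 CPM) in wild-type and from 336 to 659 CPM (median 465 CPM) in knockout females, and the knockouts reached lower without leaving the wild-type range as a group. Cs differed by -0.34 (SE 0.19), Idh2, the mitochondrial NADP-linked isocitrate dehydrogenase, by -0.38 (SE 0.21), Mdh2 by -0.31 (SE 0.18) and Aldoa by -0.29 (SE 0.19). The groups overlapped for each of the 40 genes.

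In males, too, 0 of the 40 genes were called. The fit on 5 knockout and 7 wild-type males called 40 genes of 14458 (0.277%) and 0 of the 40, and edgeR and DESeq2 called 0 of the 40. Of the wild-type males WM1, WM2 and WM3 had low Bmp10, and no knockout male did. Genotype and Bmp10 class can therefore not be fully told apart in males. At an unadjusted p under 0.05, 6 of the 40 were higher and 5 lower, beside 775 higher and 936 lower among all genes. The 2 sides of the pathway leaned apart in their medians. On the glycolytic side 18 of 23 genes had a higher mean log2 level in knockout males, with a median difference of 0.20. In the cycle 9 of 11 had a lower mean log2 level, with a median difference of -0.46, beside 0.05 over all genes. Without KM13, 11 of the 23 and 1 of the 11 had a higher mean log2 level.

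The glycolytic genes of smallest p were Eno1 and Pfkl. Eno1, the broadly expressed enolase, was at 224 CPM in KM13, 193 in KM01, 135 in KM03, 138 in KM05 and 161 in KM07, while wild-type males ran from 76.9 to 139 CPM with a median of 110 CPM. Its difference was 0.60 (SE 0.19, adjusted p = 0.238 in limma). Pfkl, the liver-type phosphofructokinase, was at 67.8 CPM in KM13, 44.9 in KM01, 72.4 in KM03, 68.4 in KM05 and 60.8 in KM07, and ran from 28 to 59.4 CPM with a median of 36.6 CPM in wild-type males. It differed by 0.65 (SE 0.20, adjusted p = 0.239 in limma). For both genes only 1 or 2 of the 5 knockout males lay inside the wild-type range.

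Of pyruvate dehydrogenase and the cycle, Sucla2, Dld and Mdh1 had the smallest p. Dld, the dihydrolipoamide dehydrogenase subunit shared by pyruvate and 2-oxoglutarate dehydrogenase, was at 541 CPM in KM13, 149 in KM01, 416 in KM03, 503 in KM05 and 452 in KM07, all below the 568.4 to 747 CPM of wild-type males. It was the 1 gene of the 40 whose groups did not overlap, while 1.62% of all genes did not overlap. Its difference was -0.81 (SE 0.27, adjusted p = 0.263 in limma). Sucla2, a subunit of succinyl-CoA synthetase, was at 690 CPM in KM13 and between 284 and 513 CPM in the MaleKOAtrium set, against 583 to 845 CPM in wild-type males (difference -0.65, SE 0.21, adjusted p = 0.252 in limma). Mdh1 was at 3310 CPM in KM13 and between 960 and 2546 CPM in the MaleKOAtrium set, against 2808 to 3835 CPM in wild-type males (difference -0.74, SE 0.28, adjusted p = 0.313 in limma). Among wild-type males WM1, WM2 and WM3, of low Bmp10, were highest for Sucla2 (816, 845 and 797.5 CPM) and Mdh1 (3835, 3817 and 3763 CPM). WM4 to WM7 ran from 583 to 726 CPM for Sucla2 and from 2808 to 3540 CPM for Mdh1. For Dld these libraries overlapped.

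The low values were those of the MaleKOAtrium set. All 4 of its libraries lay below all 7 wild-type males for 6 of the 40 genes (Pdhb, Dld, Idh3b, Sucla2, Fh1 and Mdh1) and above all 7 for 0, where 6% of all genes did not overlap in either direction. The difference in the cycle median was -0.09 without KM01 and -0.74 without KM13. Once the name set is a term, KM13 alone carries the male contrast, and the medians were 0.77 on the glycolytic side and 0.29 in the cycle. Without both KM01 and KM13, also chosen after seeing the data, 8 of the 40 passed, Hk2 (the muscle hexokinase), Pfkl and Pdk2 as higher and Dld, Idh3b (a subunit of NAD-linked isocitrate dehydrogenase), Sucla2, Fh1 and Mdh1 as lower, while 2608 genes or 18% of all were called in that fit. The share of the 40 was thus near the background. Among the 40 genes the male difference was larger in longer transcripts (Spearman's rho 0.43) and in transcripts of higher GC content (0.51). KM03, KM05 and KM07 had a length rho of 0.56, 0.47 and 0.41, and KM01 and KM13 of -0.23 and -0.60, against -0.54 to 0.44 in wild-type males. With the length trend as a term, an alternative chosen after seeing the data, 0 of the 40 were called and the medians were 0.27 and -0.39. Markers of other cells differed as well. Mesothelial markers summed to between 153 and 750 CPM in knockout males and to between 716 and 1108 CPM in wild-type males, and proliferation markers to between 23.4 and 275 against between 11.7 and 59.2 CPM. Erythroid markers summed to between 2142 and 5618 against between 437 and 3053 CPM. Their part in the result was not tested.

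**Figure D3:**
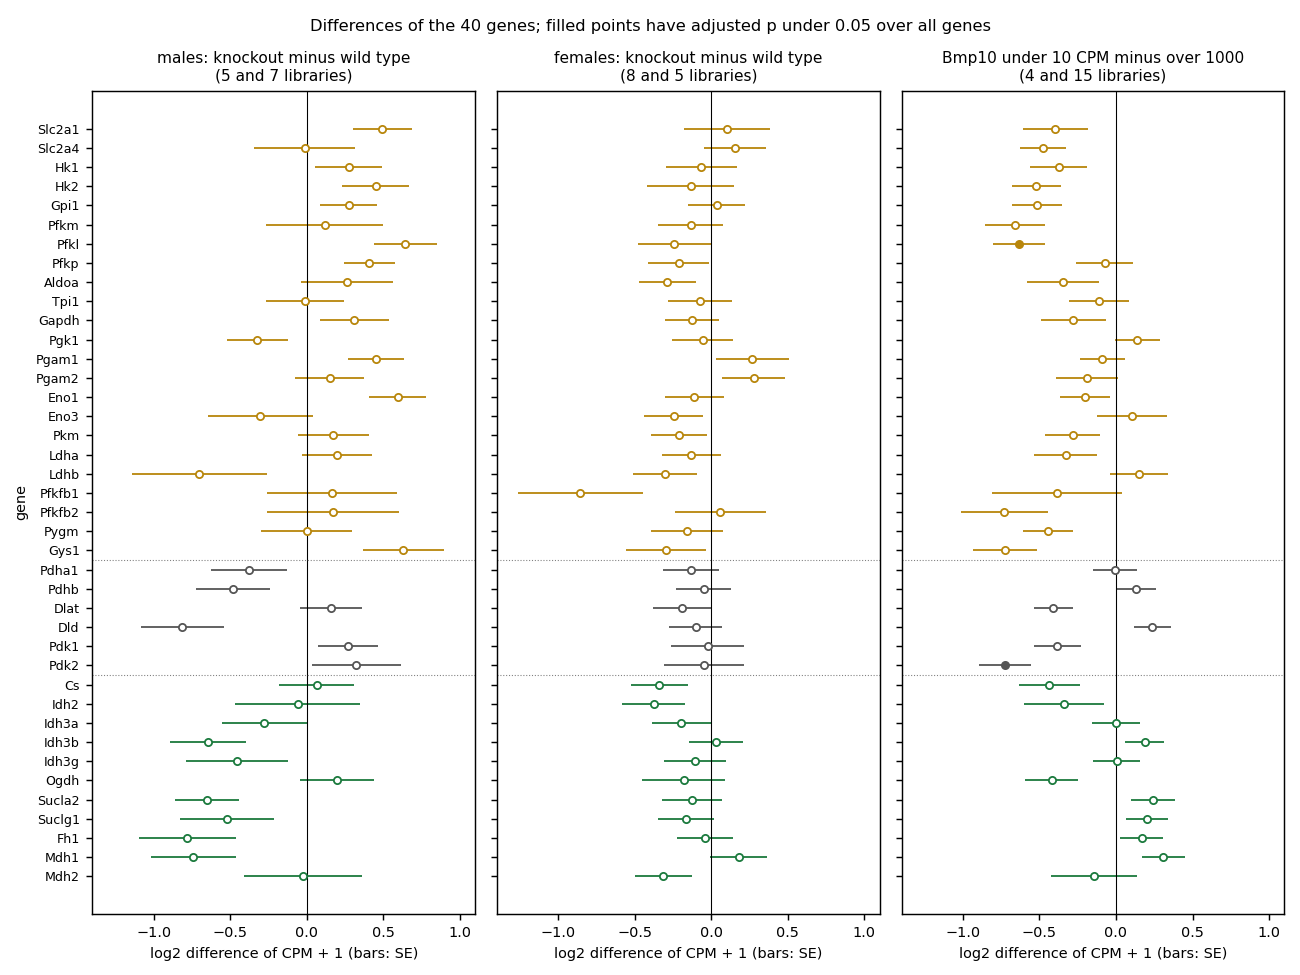
Log2 difference of CPM + 1 (x axes, points, with the standard error as bars) for the 40 genes (rows; gold glycolytic, grey pyruvate dehydrogenase, green cycle) in males, in females and between the Bmp10 classes. Filled points passed the threshold, which only Pfkl and Pdk2 in the right panel do; in males most gold points lie right and most green points left of 0.

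The isoform pairs gave the clearest picture of KM01. The log2 ratio of Ldha over Ldhb was 1.86 in KM01 and between -1.41 and -0.13 in the other 24 libraries. That of Pfkl over Pfkm was -0.97 in KM01 and between -3.60 and -2.44 elsewhere, that of Slc2a1 over Slc2a4 -1.37 against -4.77 to -2.51, and that of Eno1 over Eno3, the muscle enolase, -0.65 against -3.53 to -1.44. In each of these pairs KM01 stood on the side of the broadly expressed form. These ratios are descriptions with no test, since they were set against the rest after their values were known.

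The enolase ratio stood apart in the rest of the MaleKOAtrium set too. It was -1.93 to -1.44 in KM03, KM05 and KM07, above all 20 libraries of the LARA and CGI sets other than KM13 and above KM13 at -2.68. Wild-type males had -2.54 ± 0.34 (SD, n = 7), wild-type females -2.87 ± 0.45 (n = 5) and knockout females -2.72 ± 0.39 (n = 8). The ratio of Pfkl over Pfkm was -2.65 to -2.44 in KM03, KM05 and KM07, above the other 20 libraries (-3.60 to -2.69) and KM13 (-3.42). The ratio of Pgam1 over Pgam2 was -3.16 to -2.81 in KM03, KM05 and KM07 and -4.27 in KM13. KM05, at -3.16, and KM13 lay within the -4.41 to -3.00 of the other 20 libraries, KM13 near the lower end. The hexokinase ratio, Hk1 over Hk2, and the kinase ratio, Pdk1 over Pdk2, showed no such split, with group means of 0.02 to 0.24 and of 1.06 to 1.25. Eno3 itself was at 302 to 525 CPM in the MaleKOAtrium set, and 3 of its 4 libraries lay under the wild-type males (462 to 1159 CPM).

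**Figure D4:**
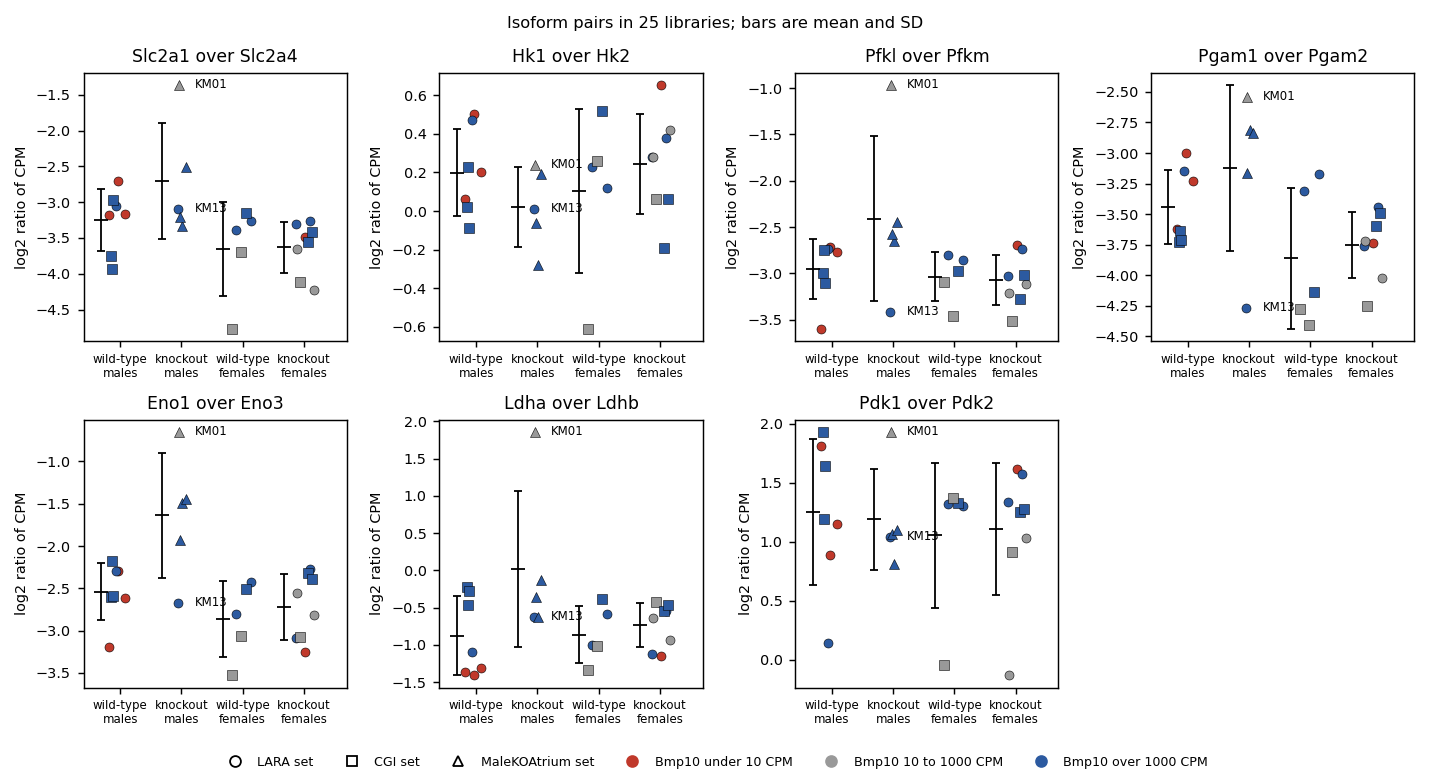
Log2 ratio of the CPM of the broadly expressed over the muscle or second isoform (y axes) for 7 pairs in each library, by sex and genotype, with the mean and SD as bars, marker shape for the name set and colour for the Bmp10 level. KM01 is the highest library for Slc2a1 over Slc2a4, Pfkl over Pfkm, Pgam1 over Pgam2, Eno1 over Eno3 and Ldha over Ldhb.

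Whether the knockout acted differently in females and males was tested as an interaction of sex and genotype with the set as a term. Among knockout males it rests on KM13 alone, and without KM13 it cannot be fitted. KM13 had high Bmp10, while WM1, WM2 and WM3 of the LARA wild-type males had low Bmp10. Limma called 0 of 14458 genes (0%), with 1069 higher and 258 lower at an unadjusted p under 0.05, and edgeR called 10 genes and DESeq2 238. Of the 40, limma and edgeR called 0 and DESeq2 8 (Gpi1, Aldoa, Gapdh, Eno1, Pkm, Ldha, Cs and Mdh2), while 13 were lower at an unadjusted p under 0.05 in limma. Aldoa had the smallest p, with KM13 at 2315 CPM, the LARA wild-type males at 771, 1025, 1383 and 792 CPM, the LARA wild-type females at 1118 and 1644 CPM and the LARA knockout females between 906 and 1566 CPM. The female effect minus the male effect was -1.52 (SE 0.36, adjusted p = 0.21 in limma). Cs (-1.27, SE 0.36), Mdh2 (-1.57, SE 0.45), Gapdh, the glyceraldehyde-3-phosphate dehydrogenase gene (-1.18, SE 0.35), and Pkm (-1.15, SE 0.35) followed, with adjusted p between 0.282 and 0.317 in limma. The median was -0.89 on the glycolytic side and -0.53 in the cycle, against 0.25 over all genes, and -1.14 and -0.78 with TMM factors. Each of the named values stands on 1 library that is also the highest of all 25 for the gene.

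Libraries with low Bmp10 had less Pdk2 and Pfkl than libraries with high Bmp10, and these were the 2 of the 40 called in that comparison. Pdk2, a pyruvate dehydrogenase kinase of heart, spans chr11:95026258-95041354 on the minus strand (GRCm38). Its level was 52.9 CPM in KF14, 63.9 CPM in WM3, 69.2 CPM in WM2 and 73.9 CPM in WM1, and it ran from 61.7 to 139 CPM with a median of 111 CPM in the 15 libraries with high Bmp10. The low libraries lay at the bottom of that range, and only WM6 (61.7 CPM) and WM7 (68.5 CPM) of the high ones lay as low. The difference was -0.72 (SE 0.17, adjusted p = 0.0186 in limma). Pfkl, at chr10:77986947-78010083 on the minus strand, was at 36 CPM in KF14, 29.7 CPM in WM3, 44.3 CPM in WM2 and 36.6 CPM in WM1. It ran from 28 to 72.4 CPM with a median of 51.9 CPM in the 15, so that the classes overlapped, and differed by -0.63 (SE 0.17, adjusted p = 0.0373 in limma).

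The fit with genotype, sex and set as terms called 664 genes of 14458 (4.59%), 505 of them lower (3.49%), so that 2 of 40 is near the share over all genes. Since all 4 low libraries are of the LARA set, the set term draws the difference within that set, against its 6 high libraries. High libraries of the CGI set enter the difference only through the genotype and sex terms, and those of the MaleKOAtrium set do not enter it. The ranges given for the 15 high libraries span all 3 sets. On the glycolytic side 20 of 23 genes had a negative fitted difference, low minus high, with a median of -0.35, against -0.11 over all genes. The cycle had 7 positive and 4 negative and a median of 0.00. These are not counts of plain class means. With TMM factors the medians were -0.26 and 0.10, and after quantile normalization -0.27 and -0.07. Just outside the threshold stood Gys1, muscle glycogen synthase, at 15.1 to 26.2 CPM in the low and 21.8 to 51.5 CPM in the high libraries (-0.72, SE 0.21, adjusted p = 0.0548 in limma), Pfkm (-0.66, SE 0.20, adjusted p = 0.0573 in limma) and Hk2 (-0.52, SE 0.16, adjusted p = 0.0619 in limma). Hk2 was at 45.3, 50.2, 51.4 and 39.6 CPM in the low libraries, below all 15 high ones (52.7 to 115 CPM), and Mdh1 at 3835, 3817, 3763 and 4483 CPM was above all 15 (1971 to 3691 CPM). These were the 2 of the 40 whose classes did not overlap, beside 4.58% of all genes.

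The calls of Pdk2 and Pfkl rest on single libraries. Without KM13 they had -0.70 (adjusted p = 0.0551 in limma) and -0.53 (adjusted p = 0.115 in limma), and without KF14, the 1 knockout among the low libraries, -0.50 (adjusted p = 0.365 in limma) and -0.58 (adjusted p = 0.33 in limma). Within wild type alone they were -0.65 and -0.51 and within knockout alone -0.94 and -0.61, and none passed. The median over the glycolytic side was -0.08 without KM13 and 0.03 in wild type alone. All 4 low libraries are of the LARA set and had a length rho of -0.54 to -0.38, against -0.60 to 0.56 in the high ones. Across the 40 genes the difference fell with transcript length (Spearman's rho -0.56), and with length as a term Pfkl had -0.56 (adjusted p = 0.0539 in limma). Proliferation markers summed to between 11.7 and 17.3 CPM in the low and to between 17.7 and 115 CPM in the high libraries, with no overlap. Erythroid markers overlapped, between 1627 and 3053 CPM in the low and between 437 and 2759 CPM in the high libraries, as did mesothelial markers, between 650 and 1108 and between 241 and 902 CPM. Their part in the differences was not tested.

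**Figure D5:**
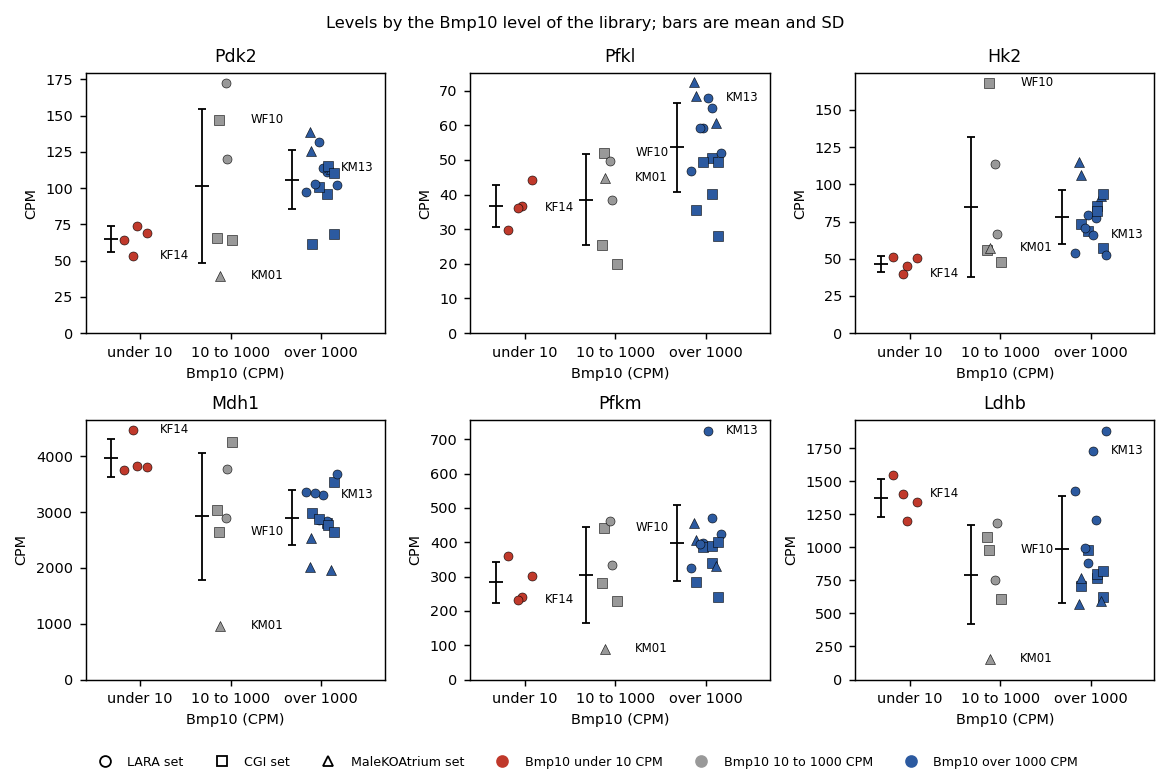
CPM (y axes, from 0) of 6 genes in each library by its Bmp10 class (x axes, CPM), with the mean and SD as bars and the name set as marker shape. The 4 low libraries lie at the bottom for Pdk2 (52.9 to 73.9 CPM) and below all 15 high libraries for Hk2, and above them for Mdh1.

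The promoters of the lactate dehydrogenase pair, whose ratio set KM01 apart, and of the 2 genes called between the Bmp10 classes are shown from 250 bases before to 50 after the start, from RefSeq on GRCm38.p6. The capitals mark ACGTG and GCGTG, the core of the element that hypoxia-inducible factors bind, on either strand. The windows are chr7:46845554-46845853 on the plus strand for Ldha, chr6:142507908-142508207 on the minus strand for Ldhb, chr11:95041322-95041621 on the minus strand for Pdk2 and chr10:78009758-78010057 on the minus strand for Pfkl.
Ldha: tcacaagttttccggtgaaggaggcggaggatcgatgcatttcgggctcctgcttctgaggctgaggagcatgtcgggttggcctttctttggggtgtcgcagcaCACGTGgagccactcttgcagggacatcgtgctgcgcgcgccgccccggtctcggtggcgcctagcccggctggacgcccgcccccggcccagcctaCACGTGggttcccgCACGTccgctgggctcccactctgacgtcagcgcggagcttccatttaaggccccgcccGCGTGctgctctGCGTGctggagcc
Ldhb: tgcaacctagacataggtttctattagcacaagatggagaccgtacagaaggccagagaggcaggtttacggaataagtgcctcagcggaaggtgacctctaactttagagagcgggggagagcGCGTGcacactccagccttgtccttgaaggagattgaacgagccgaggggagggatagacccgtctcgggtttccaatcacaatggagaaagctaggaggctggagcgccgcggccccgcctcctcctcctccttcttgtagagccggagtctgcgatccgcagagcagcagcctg
Pdk2: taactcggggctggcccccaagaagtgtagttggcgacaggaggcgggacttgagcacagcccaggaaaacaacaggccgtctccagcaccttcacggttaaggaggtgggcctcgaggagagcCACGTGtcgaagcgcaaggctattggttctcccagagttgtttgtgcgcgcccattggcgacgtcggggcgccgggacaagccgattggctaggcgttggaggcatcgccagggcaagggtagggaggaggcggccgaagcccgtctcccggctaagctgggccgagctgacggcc
Pfkl: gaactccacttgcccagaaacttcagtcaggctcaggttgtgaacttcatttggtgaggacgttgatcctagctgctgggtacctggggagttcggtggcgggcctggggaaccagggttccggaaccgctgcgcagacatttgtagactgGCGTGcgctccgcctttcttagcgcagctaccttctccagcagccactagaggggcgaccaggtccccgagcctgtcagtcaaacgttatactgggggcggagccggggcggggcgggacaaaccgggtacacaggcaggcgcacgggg

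With both strands searched and overlapping matches counted, the Ldha window held 7 such cores, the Ldhb window 1, the Pdk2 window 2 and the Pfkl window 1. Ldha and Pdk2 each have a further window in the RefSeq table, not shown, with 2 cores for Ldha and 0 for Pdk2. CACGTG, the E box, which reads as a core on each strand, was found 2 times in Ldha and 1 time in Pdk2. Promoter windows were listed for 38 of the 40 genes, some with several starts whose windows overlap, in 60 windows. A core was present in 70% of these windows, in 70.3% on the glycolytic side, in 50% of pyruvate dehydrogenase and in 80% of the cycle, beside 43.8% of all 32851 windows of the same length. Ogdh adds several overlapping windows with a core to the cycle. Counted by gene, the share was 81.8% of 22 on the glycolytic side, 66.7% of 6 for pyruvate dehydrogenase and 70% of 10 for the cycle. TCAAGGTCA, an element bound by oestrogen-related receptors, was in 0 of the 60 and in 0.423% of all windows, and the GC box GGGCGG in 50% and 35.7%. The E box was in 11.7% and 7.15%. These matches describe letters in the windows and carry no test.

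Among the 15 libraries with high Bmp10, 8 of knockouts and 7 of wild types, none of the 40 was called between the genotypes. Sex and name set were terms of this fit, so KM03, KM05 and KM07 of the MaleKOAtrium set did not enter the difference. On the knockout side only KM13 and 4 knockout females carried it. The fit called 2 genes of 14458 (0.0138%), 1 of the 40 was higher and 0 lower at an unadjusted p under 0.05, and edgeR and DESeq2 called 0 of the 40. Of the 40 genes 35 had a positive fitted difference, knockout minus wild type, which is not a count of plain group means. The median was 0.20 on the glycolytic side and 0.08 in the cycle, beside 6587 of 14458 genes positive and a median of -0.02 over all genes. Without KM13, 12 of the 40 had a positive fitted difference, and the medians were -0.04 and -0.11. Pfkm had the smallest p, with 240 to 472 CPM (median 340.5 CPM) in wild types and 330 to 725 CPM (median 403 CPM) in knockouts, where KM13 was the library at 725 CPM and the next stood at 456 CPM. Its difference was 0.38 (SE 0.18, adjusted p = 0.876 in limma) and, without KM13, 0.07. Slc2a4 (0.29, SE 0.14), Gpi1 (0.25, SE 0.15), Gapdh (0.31, SE 0.19) and Tpi1, triosephosphate isomerase (0.28, SE 0.19), came next. Slc2a4 ran from 93.2 to 143 CPM in wild types and from 118 to 156 CPM in knockouts, with overlap. Without KM13 Gpi1 had -0.04 and Gapdh -0.05.

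Other genes of the same pathways gave few calls. Of 38 further genes of glycolysis, glycogen and lactate transport, 34 of the cycle and pyruvate use, 13 regulators and 10 targets of hypoxia signalling, 0 were called between the genotypes over both sexes, in females, in males or at high Bmp10. In females the lowest p among them belonged to Got1, cytosolic aspartate aminotransferase (-0.63, SE 0.19), and Sdha, the flavoprotein of succinate dehydrogenase (-0.62, SE 0.22), each with an adjusted p of 0.935 in limma. In males Egln3, an oxygen-sensing prolyl hydroxylase (0.70, SE 0.17, adjusted p = 0.111 in limma), and Sdhd, a membrane anchor of succinate dehydrogenase (-0.75, SE 0.21, adjusted p = 0.19 in limma), had the lowest p. Slc16a3, the lactate exporter of glycolytic cells, was at 23.7 CPM in KM01 and between 2.21 and 9.99 CPM in the other 24 libraries.

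Between the Bmp10 classes, where 4.59% of all genes were called, the list of 38 genes had 3 called lower and 1 higher, the list of 34 had 2 lower and 0 higher, the 13 regulators 1 lower and 1 higher, and the 10 hypoxia targets 2 lower and 0 higher. Adm, adrenomedullin, a hypoxia target and itself a peptide that PAM amidates, was at 8.24, 8.54, 9.29 and 8.64 CPM in the low libraries and between 34.7 and 102 CPM in the high ones (difference -2.64, SE 0.22, adjusted p = 6.36e-07 in limma). Egln1, a prolyl hydroxylase, was also lower (-0.51, SE 0.12, adjusted p = 0.016 in limma). Lower on the glycolytic side were Pygb and Pygl, the brain and liver glycogen phosphorylases (-0.91, SE 0.19, and -0.95, SE 0.26), and Slc16a7, a monocarboxylate transporter (-0.98, SE 0.21), with adjusted p from 0.00892 to 0.0373 in limma. Of the cycle list, D2hgdh, which oxidizes 2-hydroxyglutarate (-0.65, SE 0.17, adjusted p = 0.0336 in limma), and Me1, cytosolic malic enzyme (-0.48, SE 0.13, adjusted p = 0.0453 in limma), were lower. Among regulators Esrrg, a nuclear receptor of oxidative muscle, was lower (-0.69, SE 0.16, adjusted p = 0.0187 in limma) and Myc, a growth regulator, higher (0.92, SE 0.23, adjusted p = 0.0243 in limma).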

How the data were processed

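Messenger RNA of 25 mouse atria was sequenced from stranded libraries in a single run of paired reads of 75 bases, per the labels' protocols. The submitters' processing notes name HISAT2, HTSeq, DESeq2 and mm10, with no versions. The deposited values of the libraries are CPM, although the table's header says FPKM: all of them (100%, tolerance 0.01 reads) were whole multiples of 1 read, and the values are not scaled to gene length. Reads recovered this way gave depths of 2246887 to 8098602 per library (median 5385966), and 3 reads, taken as the detection floor, are 0.37 to 1.34 CPM. Counting error alone is covered by such limits.

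Of 14467 lines, 9 were left out because 5 symbols stand on 10 lines. The higher line of Aldoa was kept, and 14458 genes were tested. A filter of 1 CPM in 5 libraries removed none. Log2(CPM + 1) was tested with limma 3.58.1 in R 4.3.3 (Benjamini-Hochberg adjusted p under 0.05 over all genes), on a scale that understates the change of low genes. The counts recovered from the deposited CPM were tested with edgeR 4.0.16 and DESeq2 1.42.0 as alternatives. Other alternatives changed the scaling, the pseudocount (0.1), the filter, the terms or the libraries. Scripts were tested on simulated data, and tables were made with Python 3.11.15 and pandas 2.3.3. Transcript lengths and coordinates came from GENCODE M21 on GRCm38, and promoters from RefSeq on GRCm38.p6. Groups were taken from the labels, which name individual atria. Whether every atrium came from its own mouse is not stated, so p-values measure the spread between these samples.

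The members, lists and tests were chosen with earlier results of these data known. The rule for members given with values was those called, the 5 of smallest p in each comparison and 7 isoform pairs. Other members, named for extreme libraries, groups that do not overlap, calls under an alternative or far-off values, were chosen after their values were seen. Of the other pathway lists, the called genes and up to 4 of smallest p per list are named, save for genes that are not reported here. The averages, ratios and p-values of the authors' own comparison were not used here.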

Additional observations from a re-analysis of the deposited data

Results flagged for a closer look

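Within the 4 groups of sex and genotype, 15 of 160 sets of values had 1 library far from the others by Dixon's gap test, of which chance flags about 1 in 20, or 8 sets. KM01 was the low library in 7 of them among knockout males: Slc2a4 at 32.1 CPM, Pygm at 60.9 CPM, Dlat at 79.4 CPM, Dld at 149 CPM, Pdk1 at 151 CPM, Pdk2 at 39.7 CPM and Ogdh at 255 CPM. In the same group KM13 stood high for Aldoa at 2315 CPM and KM03 high for Pfkp at 97.1 CPM. Among knockout females KF19 stood low for Pfkl at 20 CPM and for Pkm at 217 CPM, and KF16 high for Ogdh at 815 CPM. Among wild-type libraries WM3 stood high for Gapdh at 520 CPM, and WF10 low for Pgk1 at 333 CPM and for Idh3a at 529 CPM. KM01 also had the highest sum of proliferation markers (275 CPM) and WF10 the highest mitochondrial share (30.2%), and their part in these values was not tested.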

How the results depend on the processing

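Of the counts of called genes and the medians that answer a comparison, 536 stayed near the main value under an alternative and 28 moved. Near means a count of similar size, or a median shifted by less than its SD within groups (0.394 glycolytic, 0.385 cycle). Direction was not part of this, and small medians could change sign, as at high Bmp10 without KM13. In males, leaving out KM01 and KM13 gave 8 of the 40 genes called in place of 0 (2608 of all genes in place of 40), and adding the set term gave medians of 0.773 (glycolytic) and 0.286 (cycle). For the sex difference of the knockout effect, DESeq2 called 8, and without the set term the medians were -0.247 and 0.458; without KM13 it could not be fitted. Between the Bmp10 classes 2 were called. That number was 1 with median-ratio factors, TMM factors, quantile normalization or edgeR, 10 without the set term, 5 in the LARA set alone and 5 with the 6 intermediate libraries counted as low. It was 0 with those counted as high, in wild types alone, in knockouts alone, without KM01, WF10 and KM13, and between LA-named and RA-named libraries. With single libraries left out it ran from 0 (without KM13 or KF14) to 7 (without WM7). Leaving out KM01, WF10 and KM13 together, comparing LA with RA names and the length trend were chosen after seeing the data. Where a setting leaves libraries out, fewer samples are tested, and otherwise the cause was not tested.

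Directions turned for Pgam1 over both sexes (-0.135 in the LARA set alone), for Gpi1 (-0.039 without KM01, WF10 and KM13) and, at high Bmp10, for Gpi1 (-0.035) and Gapdh (-0.047) without KM13. With single libraries left out, Gpi1 there ran from -0.035 to 0.382 and Gapdh from -0.047 to 0.436. Of all genes, males had 413 called by DESeq2, 74 after quantile normalization, 63 and 62 with median-ratio and TMM factors, 75 with the length trend, 1 with the set term and 16 to 205 with 1 library left out. Between the Bmp10 classes, with 664 called, it was 3946 without the set term, 317 in the LARA set, 3017 and 1 with intermediate libraries as low and as high, 41 in wild types, 154 in knockouts, 432 without KM13, 0 between LA and RA names and 109 to 989 with 1 library left out. The sex difference, with 0, had 12 at pseudocount 0.1, 23 without the set term, 10 by edgeR, 238 by DESeq2 and 7 with Bmp10 or with length as a term. DESeq2 called 3 over both sexes, 11 in females and 15 at high Bmp10, and the CGI set alone gave 25 and 21. A replicate block in males on the shared numbers left 0 of the 40 and 1 gene called, with medians of -0.02 and -0.77. Deviations of same-numbered males correlated at 0.286, -0.272, 0.346 and 0.104. The best-matching knockout male had the same number only for WM1. These correlations also carry other traits of the libraries, so whether same-numbered samples share more than a number stays unknown.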
